A study of Sus scrofa with 10 samples.

Results

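Decorin (DCN), lumican (LUM), osteoglycin (OGN), ISLR, AEBP1, fibulin 1 (FBLN1) and fibronectin (FN1) are secreted proteins of the connective tissue matrix. Their transcripts were compared in the hypothalamus of pigs that diverge in growth and fatness. The genes were taken by name, and several of them were chosen by the measured values compared here, because earlier results of these data had shown higher FPKM in Low pigs. The 7 names matched 8 of the 25009 gene rows, since FN1 stands on 2 rows. The differences between the groups are therefore a description of genes chosen for them and carry no test.

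The animals were 10 backcross pigs of Iberian x Landrace origin, 5 with high growth and fatness (High pigs) and 5 with low growth and fatness (Low pigs). The labels name no other treatment or genotype, and the age and sex of the pigs were not given in the sources used here. Each gene row has 1 value per group in FPKM, fragments scaled for transcript length and library size, with a deposited lower and upper bound. These bounds are given in parentheses below and their confidence level is not stated. Nothing in the values shows the spread among the 5 pigs of a group, so there was no replicate check and no p-value is given.

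The matrix between cells of the brain is poor in fibrillar collagen and is built mainly from hyaluronan and the large proteoglycans called lecticans. Fibroblasts, which secrete collagen and the proteins that organise it, are found in the meninges and around the larger vessels. DCN, LUM and OGN are small leucine-rich proteoglycans, whose curved protein core binds collagen fibrils and limits their thickness. FN1 forms fibres on the cell surface that integrins hold and on which collagen and fibulins are laid down.

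All 8 rows had lower values in High pigs than in Low pigs, as did 67.7% of the 15281 rows whose 2 group values average 1 FPKM or more, called tested rows here. For 4 rows, AEBP1, ISLR, FN1 on chromosome 15 and DCN, the bounds of the groups did not overlap and the difference was more than 2-fold on the log2(FPKM + 1) scale. OGN, LUM and FBLN1 lay just short of 2-fold and their bounds overlapped. The FN1 row on chromosome 1 had nearly equal values in both groups. In bulk tissue, fewer cells of a type and less RNA per cell cannot be told apart.

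AEBP1 is a secreted collagen-binding protein whose loss causes a form of Ehlers-Danlos syndrome in humans. It was at 2.88 FPKM (1.763 to 3.998) in High pigs, against 14.5 FPKM (7.34 to 21.6) in Low pigs. The value of High pigs was 0.199 times that of Low pigs, and the log2 difference of high minus low was -2.00. Of the 8 rows, AEBP1 differed most between the groups.

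ISLR, also called meflin, is a protein with leucine-rich repeats and an immunoglobulin-like domain that marks mesenchymal stromal cells in mice. It was at 2.39 FPKM (1.24 to 3.55) in High pigs, against 11.8 FPKM (6.31 to 17.3) in Low pigs, a log2 difference of -1.92. AEBP1 and ISLR thus had almost the same ratio of high to low, 0.199 and 0.203, with levels near each other in both groups.

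FN1 on chromosome 15, the row that the reference table of identifiers also names FN1, had the highest level of the 8 rows in both groups. It was at 14.3 FPKM (10.0 to 18.6) in High pigs, against 48.8 FPKM (21.7 to 75.9) in Low pigs, a log2 difference of -1.70. The bounds were apart, although narrowly: the upper bound of High pigs was 0.859 times the lower bound of Low pigs.

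The other row that the file calls FN1 lies on chromosome 1 and was at 5.56 FPKM (3.26 to 7.86) in High pigs, against 5.69 FPKM (2.95 to 8.43) in Low pigs. The reference table of identifiers gives no symbol for this row, ENSSSCG00000025956. Its span of 7946 bases compares with 72631 bases for the row on chromosome 15, and the nearest tested rows are an unnamed row 32.1 kb before it and TNC, the gene of tenascin-C, 83.9 kb after it. Whether the row holds fibronectin transcripts was not tested. Its log2 difference of -0.03 turned to 0.07 after median-of-ratios scaling and 0.05 after quantile normalization, so no direction is drawn from it.

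DCN was the most different of the small leucine-rich proteoglycans among the 8 rows. It was at 7.91 FPKM (4.77 to 11.1) in High pigs, against 20.8 FPKM (11.98 to 29.64) in Low pigs, a log2 difference of -1.29. Its bounds were narrowly apart and came to overlap after either scaling: after median-of-ratios scaling the upper bound was 11.51 FPKM in High pigs and the lower bound 11.50 FPKM in Low pigs.

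OGN, known in bone and vessel wall, was at 11.7 FPKM (7.99 to 15.4) in High pigs, against 22.8 FPKM (14.2 to 31.4) in Low pigs, a log2 difference of -0.90. LUM, which spaces collagen fibrils in the cornea, was at 2.23 FPKM (1.29 to 3.17) in High pigs, against 5.01 FPKM (2.78 to 7.23) in Low pigs, also a log2 difference of -0.90. LUM is the row with the lowest level of the 8, and the added 1 FPKM shrinks its difference: with a pseudocount of 0.5 it was -1.01, past 2-fold. FBLN1, a glycoprotein of basement membranes and elastic fibres that binds fibronectin, was at 4.51 FPKM (2.74 to 6.28) in High pigs, against 8.78 FPKM (4.90 to 12.7) in Low pigs, a log2 difference of -0.83. For each of these 3 genes the bounds of the groups overlapped.

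**Figure D1:**
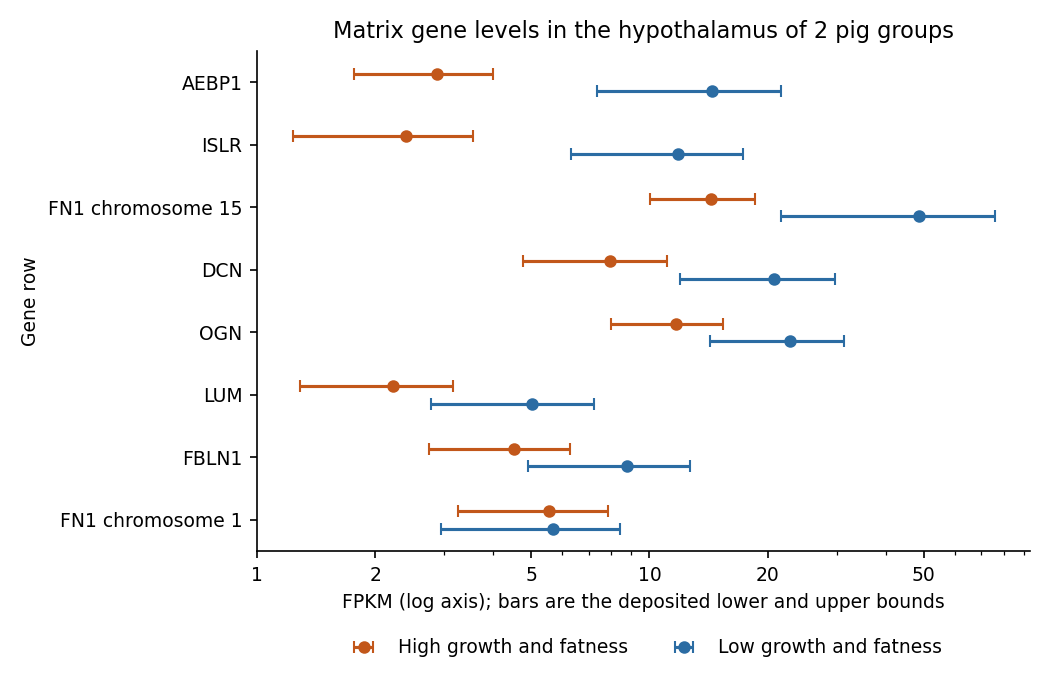
Levels of the 8 matrix gene rows in FPKM on a log axis, High pigs above Low pigs in each row. Points are the deposited group values and bars the deposited lower and upper bounds, which are apart for AEBP1, ISLR, FN1 on chromosome 15 and DCN and overlap for OGN, LUM, FBLN1 and FN1 on chromosome 1.

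The 8 rows were set against these 15281 rows. The share of tested rows lower in High pigs was 67.7% as deposited, 49.9% after median-of-ratios scaling and 50.5% after quantile normalization, so a count of lower rows in a list is read beside 67.7%. It was 68.2% among the 14757 rows at 1 FPKM or more in both groups, where all 8 rows stand. All 8 were above 1 FPKM in each group, so none passed this filter through a single group. Of all tested rows, 1.62% were at least 2-fold lower in High pigs, against 0.936% at least 2-fold higher. Bounds were apart for 0.432% of rows with the lower value in High pigs and for 0.0262% with the higher value there. The choice of genes used these same values, so the counts of 4 of 8 by either rule are given beside this background with nothing read from them. The median log2 difference was -1.10 over the 8 rows and -0.10 over all tested rows. Without the FN1 row on chromosome 1 it was -1.29 over 7 rows. Median-of-ratios scaling and quantile normalization brought the median of all tested rows to about 0 and that of the 8 rows to -0.996 and -1.01.

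Rows listed at 0 in 1 group made up 125 of the tested rows and held the most extreme differences, 50 of the 248 at least 2-fold lower in High pigs and 75 of the 143 at least 2-fold higher. Among the 15156 rows above 0 in both groups, 1.31% were at least 2-fold lower in High pigs and 0.449% at least 2-fold higher. Counted from the lowest difference in that set, AEBP1 ranked 41, ISLR 47, FN1 on chromosome 15 62 and DCN 114. OGN, LUM and FBLN1 ranked 252, 256 and 299, and the FN1 row on chromosome 1 ranked 9563.

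**Figure D2:**
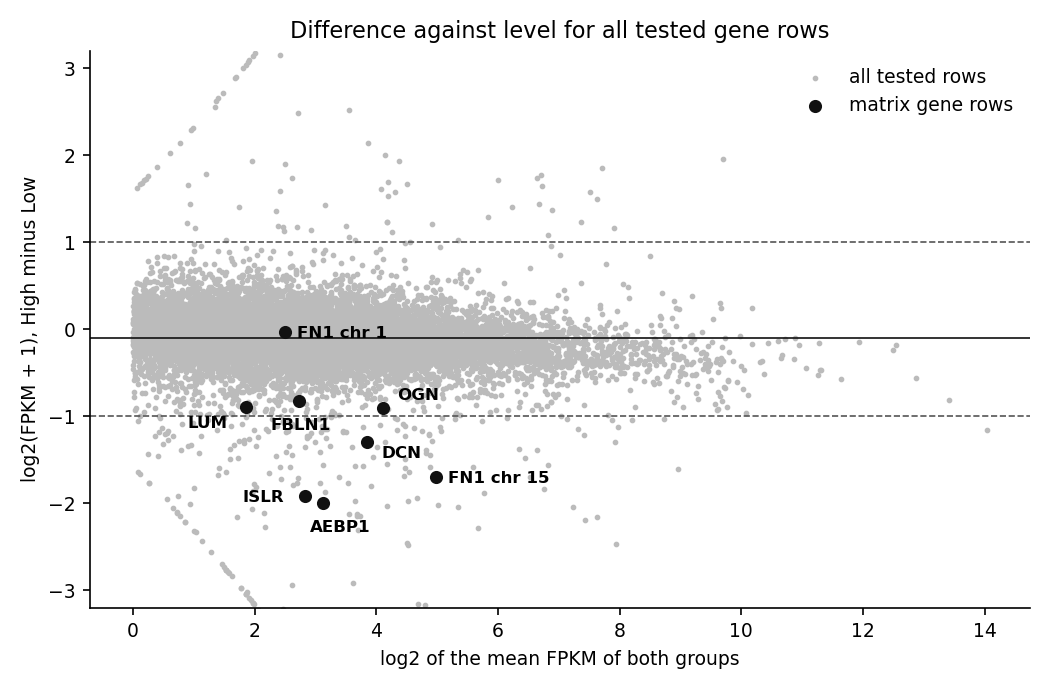
Difference in log2(FPKM + 1), High minus Low, against the log2 of the mean FPKM, with 1 point per tested row. Black points are the 8 matrix gene rows, dashed lines mark a 2-fold difference and the solid line the median of all tested rows, -0.10. The vertical axis ends at 3.2 in either direction, which leaves out 101 of the tested rows, and the straight arms are rows listed at 0 in 1 group.

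Since FPKM is scaled for length, the levels of the genes can be compared within a group. In both groups the order began with FN1 on chromosome 15, OGN and DCN and ended with LUM. The order of the rows between them differed. In High pigs FN1 on chromosome 1 and FBLN1 stood above AEBP1 and ISLR, and in Low pigs AEBP1 and ISLR stood above FBLN1 and FN1 on chromosome 1. Each row's bounds overlapped those of the next row in the order, in both groups, so no pair of neighbours in either order was apart. The 8 rows summed to 51.5 FPKM in High pigs, against 138 FPKM in Low pigs, a ratio of 0.373. Without the FN1 row on chromosome 1 the sum was 46.0 FPKM in High pigs, against 132 FPKM in Low pigs, a ratio of 0.347.

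The make-up of the sum of all 8 rows also differed. The share of the FN1 row on chromosome 1 was 10.8% in High pigs, against 4.12% in Low pigs, with nearly equal FPKM. FN1 on chromosome 15 held 27.8% of it in High pigs, against 35.3% in Low pigs. AEBP1 held 5.59% in High pigs, against 10.5% in Low pigs, and ISLR 4.64% in High pigs, against 8.54% in Low pigs. OGN held 22.7% in High pigs, against 16.5% in Low pigs, while the share of DCN was nearly the same, 15.4% in High pigs, against 15.1% in Low pigs. Among all tested rows, AEBP1 stood at the 21.9th percentile of levels in High pigs and the 69.0th in Low pigs. OGN stood at the 65.5th percentile in High pigs and the 79.3rd in Low pigs. No interval was made for these shares and percentiles, as the counts behind them were not used here. The shares count the FN1 row on chromosome 1 in the sum and were not computed without it.

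Lists of related genes were compared in the same way, as counts and medians beside those of all tested rows. The other small leucine-rich proteoglycans, 15 names on 17 rows, had 9 rows past the filter, all with lower values in High pigs, beside 67.7% of all tested rows. ASPN passed through its level in Low pigs alone. ASPN, OMD and both ECM2 rows share a span, so reads may be shared among them and their levels are uncertain. Of the 9 rows, 3 were at least 2-fold lower and 2 had bounds apart, beside 1.62% and 0.432% of all tested rows. Biglycan (BGN), the closest relative of DCN, was at 10.7 FPKM (7.11 to 14.3) in High pigs, against 35.5 FPKM (21.2 to 49.8) in Low pigs, a log2 difference of -1.64. Fibromodulin (FMOD), a relative of LUM that also binds collagen, was at 6.38 FPKM (4.20 to 8.57) in High pigs, against 15.6 FPKM (9.22 to 21.9) in Low pigs. PRELP, which anchors basement membranes to collagen, was at 6.04 FPKM in High pigs, against 13.1 FPKM in Low pigs, with overlapping bounds and a log2 difference of -1.003, barely past 2-fold. The median of the 9 rows was -0.78, which is the value of an ECM2 row. A further 8 rows, among them KERA, EPYC, OPTC and CHAD, were below the filter. With no filter, and so with all 17 rows, the median was -0.23.

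The other fibulins and related proteins had 5 rows past the filter and a median of -0.52, which was -0.28 with no filter and -1.11 with the filter at 5 FPKM. EFEMP1, or fibulin 3, was at 3.97 FPKM (2.38 to 5.56) in High pigs, against 10.6 FPKM (5.74 to 15.4) in Low pigs, with bounds apart. FBLN5, needed for elastic fibres in mice, was at 3.26 FPKM in High pigs, against 7.51 FPKM in Low pigs, a log2 difference of -0.999, barely short of 2-fold. FBLN2, EFEMP2 and FBLN7 differed by less.

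The list of paralogs of AEBP1 and ISLR had 5 rows past the filter and a median of -0.38. It was -0.66 with 1 row per symbol on placed chromosomes, which leaves out the unplaced CPM row. CPXM1, which shares the carboxypeptidase-like and discoidin domains of AEBP1, was at 0.697 FPKM (0.286 to 1.11) in High pigs, against 3.53 FPKM (1.56 to 5.50) in Low pigs. It passed the filter through its level in Low pigs. CPE, the carboxypeptidase that trims peptide hormones in neurons, was at 648 FPKM in High pigs, against 661 FPKM in Low pigs, a log2 difference of -0.03. CPD, a carboxypeptidase of the Golgi, was at 21.7 FPKM in High pigs, against 28.5 FPKM in Low pigs. ISLR2 and CPZ were not matched to a row.

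Fibrillar collagens and the collagens that sit on their fibrils, to which DCN, LUM and FN1 bind, had 13 of 16 rows past the filter and a median of -0.87, which was -0.52 with no filter and -1.63 with the filter at 5 FPKM. Of these, 5 were at least 2-fold lower in High pigs and 4 had bounds apart, beside 1.62% and 0.432% of all tested rows. COL3A1, the chain of type III collagen, was at 4.20 FPKM in High pigs, against 21.5 FPKM in Low pigs, a log2 difference of -2.12. COL1A1, a chain of type I collagen, was at 12.2 FPKM in High pigs, against 52.6 FPKM in Low pigs on chromosome 12, and its unplaced row at 3.26 FPKM in High pigs, against 14.5 FPKM in Low pigs, both with bounds apart. COL1A2 was at 15.2 FPKM in High pigs, against 41.4 FPKM in Low pigs on chromosome 9. COL1A1 and COL1A2 each stand on 2 rows, so their reads may be split and their levels are uncertain. COL5A2 (log2 difference -0.06) and COL5A3 (0.01) were at nearly equal values, and COL16A1 on chromosome 6 was higher in High pigs, at 5.32 FPKM against 3.49 FPKM in Low pigs.

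Other glycoproteins that fibroblasts secrete had 17 of 26 rows past the filter and a median of -0.33, which was -0.72 with the filter at 5 FPKM. Of these, 4 rows were at least 2-fold lower in High pigs, beside 1.62% of all tested rows. Periostin (POSTN) was at 1.75 FPKM (0.885 to 2.62) in High pigs, against 7.65 FPKM (3.84 to 11.5) in Low pigs. It was the only row of this list with bounds apart, beside 0.432% of all tested rows with the lower value in High pigs. MFAP5, a microfibril protein, was at 2.498 FPKM in High pigs, against 9.43 FPKM in Low pigs. PCOLCE, which speeds the trimming of procollagen, was at 4.03 FPKM in High pigs, against 10.8 FPKM in Low pigs, and matrix Gla protein (MGP) at 34.3 FPKM in High pigs, against 72.2 FPKM in Low pigs. SPARC, made by many brain cells and with the highest level of the list, was at 1104 FPKM in High pigs, against 1437 FPKM in Low pigs on chromosome 16, a log2 difference of -0.38. It too stands on 2 rows and its level is uncertain.

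Receptors and partners of the same proteins had no row past 2-fold. The fibronectin receptors had 6 of 9 rows past the filter, and a median of -0.18. ITGB1, the shared beta chain of many matrix receptors, was at 42.6 FPKM in High pigs, against 49.2 FPKM in Low pigs, and ITGAV at 17.3 FPKM in High pigs, against 17.7 FPKM in Low pigs. The ligands and receptors of TGF-beta, which DCN binds, and other partners of DCN had 14 of 16 rows past the filter. Their median was -0.16, and 9 of the 14 rows (64.3%) were lower in High pigs, beside 67.7% of all tested rows. The other 5 were higher. The median was -0.05 with no filter and -0.32 with the filter at 5 FPKM. TGFB3 had a log2 difference of -0.82 and passed the filter through its level in Low pigs. LRP1, an endocytic receptor, was higher in High pigs by 0.63, and the bounds of the groups overlapped for TGFB3 and LRP1 alike. CTGF was at 34.5 FPKM in High pigs, against 41.3 FPKM in Low pigs, and the higher of the TGFBR2 rows at 16.5 FPKM in High pigs, against 25.2 FPKM in Low pigs.

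The lists of proteoglycans of brain tissue itself had medians close to that of all rows. The list of lecticans, link proteins and their partners had 8 of 10 rows past the filter, a median of -0.13 and no row past 2-fold. Of the lecticans, VCAN differed by -0.57 and BCAN by -0.14, ACAN was below the filter and NCAN was not matched to a row. PTPRZ1, a proteoglycan of glia, was at 61.3 FPKM in High pigs, against 62.5 FPKM in Low pigs, and CSPG5 at 50.9 FPKM in High pigs, against 61.0 FPKM in Low pigs. Heparan sulfate proteoglycans and testicans had 11 of 13 rows past the filter and a median of -0.03. This median turned to 0.06 after median-of-ratios scaling, 0.02 after quantile normalization and 0.04 with the filter at 5 FPKM. Of the 11 rows, 6 (54.5%) were lower in High pigs, beside 67.7% of all tested rows, and 5 were higher. GPC6 differed by -0.74. SPOCK2, a testican of neurons, was at 108 FPKM in High pigs, against 104 FPKM in Low pigs, and SPOCK3 at 52.4 FPKM in High pigs, against 46.6 FPKM in Low pigs.

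**Figure D3:**
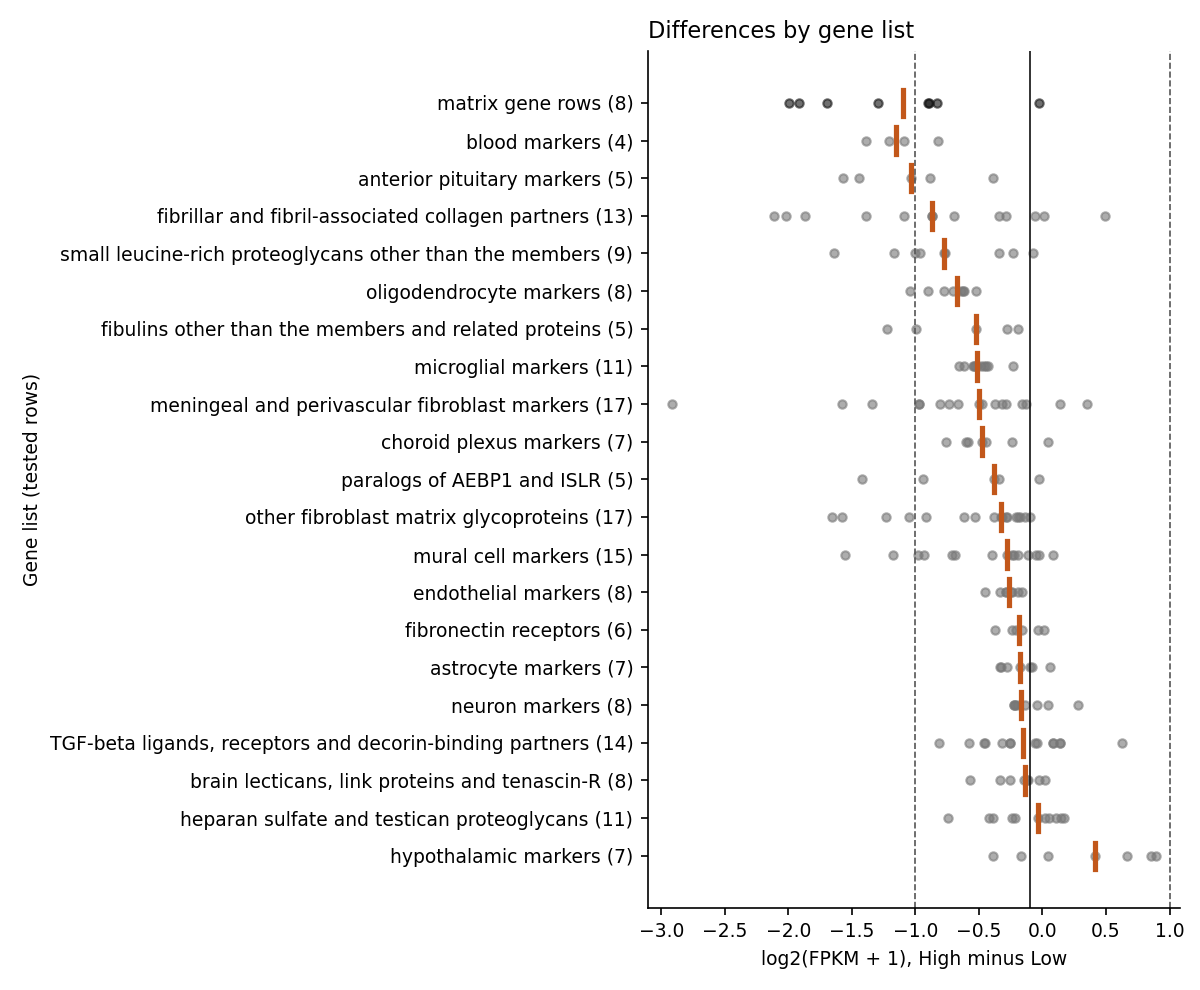
Difference in log2(FPKM + 1), High minus Low, by gene list, with 1 point per tested row and an orange bar at the list's median. The number of tested rows stands in parentheses, the solid line is the median of all tested rows, -0.10, and dashed lines mark a 2-fold difference. The 8 matrix gene rows have a median of -1.10, and blood (-1.15) and anterior pituitary (-1.03) markers have medians near it. The medians of the lectican (-0.13) and heparan sulfate proteoglycan (-0.03) lists lie near the solid line.

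Markers of cells that make or border on this matrix were listed as well. Markers of meningeal and perivascular fibroblasts had 17 of 22 rows past the filter, 15 of them lower in High pigs, beside 67.7% of all tested rows, and a median of -0.50. FOXC2, COL15A1, TBX18 and the lower row of ALDH1A2 were below 1 FPKM in High pigs and passed only through Low pigs. Of the other 13 rows, NGFR (log2 difference 0.35) and LAMA1 (0.14) were higher in High pigs and 11 were lower. The higher row of ALDH1A2 was among them, at 1.46 FPKM in High pigs, against 3.83 FPKM in Low pigs. CRABP2, which carries retinoic acid to the nucleus, was at 2.12 FPKM (0.647 to 3.59) in High pigs, against 22.5 FPKM (10.6 to 34.5) in Low pigs, and SLC6A13, a transporter of GABA and taurine, at 2.92 FPKM in High pigs, against 8.92 FPKM in Low pigs, both with bounds apart. VIM was at 223 FPKM in High pigs, against 316 FPKM in Low pigs, and S100A6 at 98.6 FPKM in High pigs, against 120 FPKM in Low pigs. PDGFRA, which fibroblasts share with oligodendrocyte precursors, differed by -0.16. MFAP5, given above among the other glycoproteins, is counted in this list as well. DPT and PI16, markers of fibroblasts in other organs, were below 0.5 FPKM in both groups, and FOXC1, FOXD1, SLC13A3 and THY1 were not matched to a row. The listed levels sum to 372 FPKM in High pigs, against 537 FPKM in Low pigs, and VIM and S100A6 make up most of both sums. The label of a fibroblast matrix rests on what these genes are known for, since no cell types were separated.

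Markers of other cell types were counted in the same way, again beside the 67.7% of all tested rows that were lower in High pigs. Mural cell markers had 15 rows, 14 of them lower in High pigs, a median of -0.28 (-0.71 with the filter at 5 FPKM) and a sum of 102 FPKM in High pigs, against 174 FPKM in Low pigs. Of these, ACTA2 was at 8.68 FPKM in High pigs, against 27.4 FPKM in Low pigs, and TAGLN at 16.1 FPKM in High pigs, against 37.7 FPKM in Low pigs, both with bounds apart, while the pericyte marker RGS5 was at 32.8 FPKM in High pigs, against 43.6 FPKM in Low pigs. Endothelial markers were lower in High pigs in 8 of 8 rows by a median of -0.27 with no row past 2-fold, among them CLDN5 at 11.7 FPKM in High pigs, against 13.1 FPKM in Low pigs, and EMCN at 9.56 FPKM in High pigs, against 11.5 FPKM in Low pigs. Blood markers summed to 161 FPKM in High pigs, against 393 FPKM in Low pigs, with a median of -1.15 (-0.83 with no filter). Of 7 rows, 4 passed the filter, all lower in High pigs, and 3 were at least 2-fold lower, beside 1.62% of all tested rows. AHSP passed only through its level in Low pigs. HBB was at 102 FPKM in High pigs, against 239 FPKM in Low pigs, and HBA, the other globin chain, at 55.0 FPKM in High pigs, against 146 FPKM in Low pigs, both with bounds apart. ALAS2, the first enzyme of haem synthesis in red cells, was at 1.85 FPKM in High pigs, against 5.07 FPKM in Low pigs. Anterior pituitary markers summed to 387 FPKM in High pigs, against 750 FPKM in Low pigs, with a median of -1.03 (-0.64 with no filter). Of their 8 rows, 5 passed the filter, all lower in High pigs, and PRL was at 279 FPKM (174 to 384) in High pigs, against 570 FPKM (102 to 1039) in Low pigs. TSHB passed only through its level in Low pigs. LHB and CGA, subunits of the pituitary glycoprotein hormones, were at 6.40 FPKM and 15.5 FPKM in High pigs, against 21.0 FPKM and 43.7 FPKM in Low pigs. The bounds of the groups overlapped in all 5 tested rows of the pituitary list, and PRL was the largest part of both its sums. POMC, which hypothalamic neurons also make, was at 84.0 FPKM in High pigs, against 110.4 FPKM in Low pigs. GH1 and PITX1 were not matched to a row. The part of these tissues in the differences of the 8 matrix gene rows was not tested.

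Oligodendrocyte markers were lower in High pigs in 8 of 8 rows, beside 67.7% of all tested rows, with a median of -0.68. They summed to 2824 FPKM in High pigs, against 4371 FPKM in Low pigs. The myelin genes MBP and MOBP were at 2017 FPKM and 367 FPKM in High pigs, against 2904 FPKM and 685 FPKM in Low pigs. CLDN11, a claudin that arachnoid cells of the meninges also make, was at 153 FPKM in High pigs, against 317 FPKM in Low pigs. Microglial markers were lower in High pigs in 11 of 11 rows, beside the same 67.7%, with a median of -0.52. They summed to 436 FPKM in High pigs, against 624 FPKM in Low pigs. The complement genes C1QC and C1QB were at 96.2 FPKM and 76.9 FPKM in High pigs, against 139.7 FPKM and 104 FPKM in Low pigs. Choroid plexus markers were lower in 6 of 7 rows, beside 67.7% of all tested rows, with a median of -0.48. A row of FOLR1 passed only through its level in Low pigs. TTR, the defining choroid plexus gene, was at 268 FPKM in High pigs, against 407 FPKM in Low pigs, and the higher row of FOLR1, a folate receptor, at 39.5 FPKM in High pigs, against 55.3 FPKM in Low pigs. Medians were -0.17 for astrocyte markers and -0.17 for neuron markers, the second of which turned to 0.06 after quantile normalization. The astrocyte markers S100B and AQP4 were at 1437 FPKM and 315 FPKM in High pigs, against 1801 FPKM and 398 FPKM in Low pigs. The neuron markers SNAP25 and STMN2 were at 394 FPKM and 414 FPKM in High pigs, against 461 FPKM and 401 FPKM in Low pigs. Neuropeptides that define the hypothalamus were present in both groups, with AVP at 472 FPKM in High pigs, against 354 FPKM in Low pigs and PMCH at 167 FPKM in High pigs, against 91.8 FPKM in Low pigs. Of the 7 tested rows of their list, 5 were higher in High pigs, and AGRP (-0.17) and POMC (-0.39) were lower. The median was 0.41, and 0.23 with no filter or with the filter at 5 FPKM.

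The places of the genes in the genome, which had no part in choosing them, were then examined on build Sscrofa10.2. DCN (chromosome 5, 96109666 to 96143719) and LUM (chromosome 5, 96175704 to 96184752) are neighbours 32.0 kb apart, and KERA and EPYC, further genes of the same family, follow on the same chromosome. KERA was at 0.0048 FPKM in High pigs, against 0.025 FPKM in Low pigs, and EPYC at 0.017 FPKM in High pigs, against 0 in Low pigs, so that of these 4 genes only DCN and LUM passed the filter. FBLN1 (chromosome 5, 1071720 to 1158793) lies far from them on that chromosome. AEBP1 is on chromosome 18 (55940540 to 55950130), ISLR on chromosome 7 (63967911 to 63971166), OGN on chromosome 3 (43250505 to 43259402) and the main FN1 row on chromosome 15 (130357873 to 130430503).

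The 3 nearest tested rows on each side of the 8 rows, ties included, came to 47 distinct rows apart from the matrix genes. Their median log2 difference was -0.14, near that of all tested rows. Bounds were apart in 0 of them, beside 0.432% of all tested rows with the lower value in High pigs. At least 2-fold lower in High pigs were 2 unnamed rows with lower bounds of 0 in both groups, beside 1.62% of all tested rows. Taking exactly 3 rows on each side, with ties at a shared span broken by identifier, gave 42 distinct rows, a median of -0.12 and 0 rows past 2-fold. POLD2, a subunit of DNA polymerase delta, ends 67 bases before AEBP1 and was at 5.05 FPKM in High pigs, against 5.70 FPKM in Low pigs, a log2 difference of -0.15. STRA6, the receptor of retinol binding protein, ends 2.27 kb before ISLR and differed by -0.39. ATIC, a purine synthesis enzyme, ends 9.03 kb before FN1 on chromosome 15 and differed by 0.04. ATP2B1, the tested gene beyond LUM, differed by 0.31 and 0.15 on its 2 rows.

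OGN, like DCN and LUM, has relatives of its family beside it. From 1.31 kb beyond its end, 7 rows share 1 span (chromosome 3, 43260712 to 43602320), among them OMD, ASPN and 2 rows named ECM2, all of the same proteoglycan family. OMD was at 2.84 FPKM (1.14 to 4.54) in High pigs, against 5.54 FPKM (1.68 to 9.40) in Low pigs. The ECM2 rows were at 6.40 FPKM and 6.39 FPKM in High pigs, against 13.4 FPKM and 11.7 FPKM in Low pigs. ASPN was at 0.888 FPKM in High pigs, against 1.40 FPKM in Low pigs, a log2 difference of -0.34 with lower bounds of 0. Of the other rows of that span, CENPP also differed by -0.34, IPPK by 0.004 and an unnamed row by -1.03. The rows of the span overlap, so reads may be shared among them, their bounds are wide and their levels are uncertain.

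**Figure D4:**
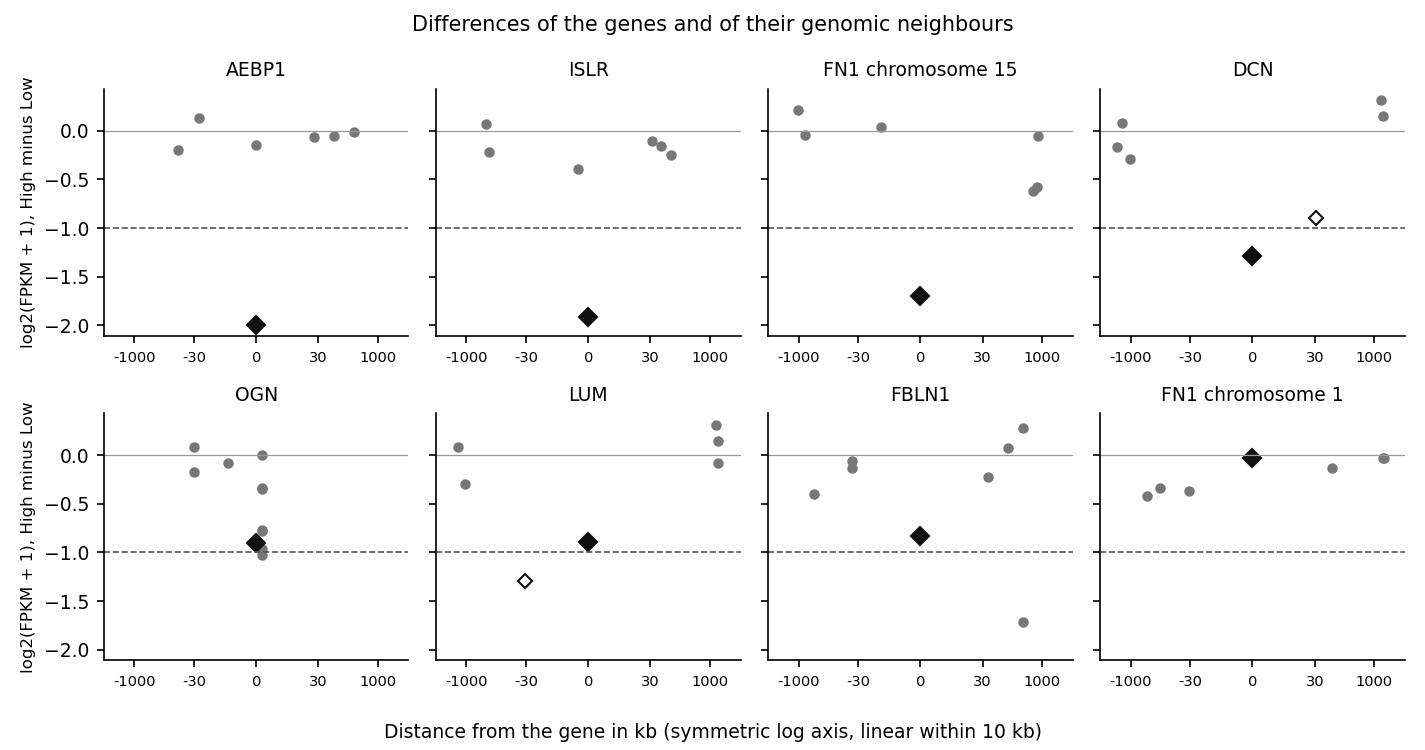
Difference in log2(FPKM + 1), High minus Low, for each matrix gene row (black diamond at distance 0) and its nearest tested rows, by distance in kb on a symmetric log axis. Open diamonds are DCN and LUM where each is the neighbour of the other, and the dashed line marks a 2-fold difference. Neighbours of AEBP1, ISLR and FN1 on chromosome 15 lie between -0.62 and 0.22.

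The genes most like the 8 rows in their pair of values were found by distance to the rows' median log2(FPKM + 1), 2.59 in High pigs, against 3.81 in Low pigs. RHBDL2, a rhomboid protease, was nearest at a distance of 0.022, with 4.92 FPKM in High pigs, against 13.0 FPKM in Low pigs. The next were a row named TTP, SBAB-707F1.3, CXCL10 and CTSC, at distances of 0.055 to 0.097. With 2 values per row, many unrelated genes fall close together.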

How the data were processed

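The data are from RNA of pig hypothalamus, with paired-end libraries sequenced on an Illumina HiSeq, per the labels' protocols. The submitters' processing notes name TopHat2 2.0.5, Bowtie2, Cufflinks 2.0.2 and build Sscrofa10.2, with no settings. The authors deposited 1 FPKM value per gene row and group, and the file columns next to it hold a lower and an upper bound (also in FPKM, per the file headers) and a status. How the pigs of a group were combined is not given in the sources used here. Depth per sample is unknown, as counts were not used here.

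From these values, the difference in log2(FPKM + 1) was computed as High minus Low in Python 3.11.15 with pandas 2.3.3. Rows without an estimate in a group (58 rows) were left out, GFAP among them. Rows averaging 1 FPKM or more across the 2 group values were counted as tested, and past 2-fold means a log2 difference of at least 1 in size. The file names 16804 rows, a table of identifiers 963 more. Starts were raised by 1, because end minus start was a multiple of 3 in 154 of 180 olfactory receptor rows, so the file counts starts from 0. Of each list, the 4 largest differences past 2-fold and the 2 highest levels were named. Other genes were named after their values were seen. The list of hypothalamic neuropeptides was added after the files were seen. The search for neighbours first took exactly 3 rows a side, and tied rows were included after that result had been seen. Both versions are given. The members, the lists and the rules were chosen with earlier results of these data known. The calculations were tested on simulated data. Alternatives were pseudocounts of 0.5 and 0.1, no filter, a filter at 5 FPKM, median-of-ratios scaling, quantile normalization and 1 row per symbol on placed chromosomes.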

Additional observations from a re-analysis of the deposited data

How the results depend on the processing

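The 4 rows past 2-fold (AEBP1, ISLR, FN1 on chromosome 15 and DCN) kept at least that difference under every alternative run, with log2 differences of -2.29 to -1.90, -2.25 to -1.82, -1.76 to -1.55 and -1.38 to -1.18. LUM ran from -1.13 (pseudocount 0.1) to -0.81, and was removed by the filter at 5 FPKM. OGN ran from -0.95 to -0.78 and FBLN1 from -0.95 to -0.73. The median of the 8 rows, -1.10, was -0.996 after median-of-ratios scaling, short of 2-fold. The median of all tested rows turned from -0.10 to 0.00073 after that scaling, the FN1 row on chromosome 1 to 0.071 (0.047 after quantile normalization), the heparan sulfate list to 0.061 (0.017 after quantile normalization, 0.037 with the filter at 5 FPKM) and the neuron list to 0.064 after quantile normalization. Medians nearer 0 after median-of-ratios scaling and quantile normalization were -0.09 and -0.08 for fibronectin receptors (-0.12 with the filter at 5 FPKM), -0.07 and -0.06 for the TGF-beta list, -0.04 and -0.05 for lecticans and -0.06 and -0.03 for astrocytes. After median-of-ratios scaling they were -0.17 for endothelial and -0.05 for neuron markers, and the neuropeptides were at 0.74 after quantile normalization. The anterior pituitary median of -1.03 was -0.64 with no filter, -0.91 after median-of-ratios scaling and -0.86 after quantile normalization. The blood median of -1.15 was -0.83 with no filter. Neighbours past 2-fold were 2, with 3 at either smaller pseudocount and 1 after either scaling. They were 0 with ties broken by identifier, which removes 5 of the 47 rows. Rows at least 2-fold lower in High pigs numbered 248 of 15281, and 155 of 9606 with the filter at 5 FPKM, where fewer rows were tested. Apart from that filter and the scalings' own shift of all rows, the cause was not tested. Leaving out the FN1 row on chromosome 1 and including tied neighbours were chosen after seeing the data. No paired analysis was possible because each group stands in the table as a single value, and leave-one-out fits were not run for the same reason.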
